A study of Mus musculus with 6 samples.

Results

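Voltage-gated potassium (Kv) channel subunit genes were examined in dorsal root ganglia, which hold the cell bodies of sensory neurons with their glia. They form a list of 32 pore-forming, silent and beta subunit genes, chosen by name, with earlier results of these data known. Of these, 30 had at least 1 probe on the array by the transcript assigned to it, and 40 probes of the 41174 non-control probes belonged to them. Kcna6 and Kcng2 had no matching probe and were not analysed here. Testing required a probe well above background on the 3 arrays of dt27J, of WT, or of both. This left 28 of the 40 Kv probes, for 22 genes, among 26248 tested probes in all.

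The samples were 3 dt27J and 3 WT mice of the C57BL/6 background, all at postnatal day 4, with 1 single-colour array of total RNA from each animal. In dt27J mice Dst is mutated. It encodes dystonin, a large linker of cytoskeletal filaments, and mice that lack it develop dystonia with sensory nerve degeneration. The WT animals are described as littermate controls, the animals came from 2 litters, and the series calls this age pre-phenotype. The labels do not say which part of Dst is altered.

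Kv channels open when the membrane is depolarised and let potassium out of the cell, which ends the action potential and sets how often a neuron can fire. A channel is built of pore-forming alpha subunits of a like subfamily, to which cytoplasmic beta subunits or other partners can bind. In sensory neurons, Kcna channels act near threshold, Kcnd channels and some Kcna and Kcnc channels carry fast inactivating A-type currents, other Kcnc channels repolarise fast-firing axons, Kcnb channels carry delayed rectifier current and Kcnq channels the M current. The silent subunits of the Kcnf, Kcng, Kcns and Kcnv genes form no channel alone and alter Kcnb channels.

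Each label names 1 of 2 dates, and the file headers give each date its own slide and scan date. dt27J 1 and 2 and WT 1 and 2 belong to the first date, and dt27J 3 and WT 3 to the second. Dst, the mutated gene, was lower on every dt27J array. The fold change on its brightest probe was -2.68 in log2 units (SE 0.26, adjusted p = 0.0341, limma). Detection well above background covered 63.1% to 71.5% of the probes of each array. Markers of other tissues differed between the arrays. In log2 units relative to the WT mean, the mean over 9 measured spinal cord genes stood at -2.17, -2.34 and -2.06 on dt27J 1 to 3. It stood at 1.09, 1.01 and -2.10 on WT 1 to 3. Of these genes 8 had a negative fold change and Pdgfra a positive one (0.67). Chat, Pax2 and Olig1 were well above background on 2 of 3 dt27J arrays and 3 of 3 WT arrays. The mean over 12 skeletal muscle genes stood at 1.28, 2.46 and 2.10 on the dt27J arrays, against -0.65, -0.65 and 1.30 on the WT arrays. WT 1 and WT 2 thus stood apart in both lists. Between the arrays of the second date the spinal cord genes differed in both directions, dt27J 3 minus WT 3 ranging from -1.66 (Gpr17) to 2.03 (Olig1). All 10 sensory neuron genes with a probe were well above background on every array.

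**Figure D1:**
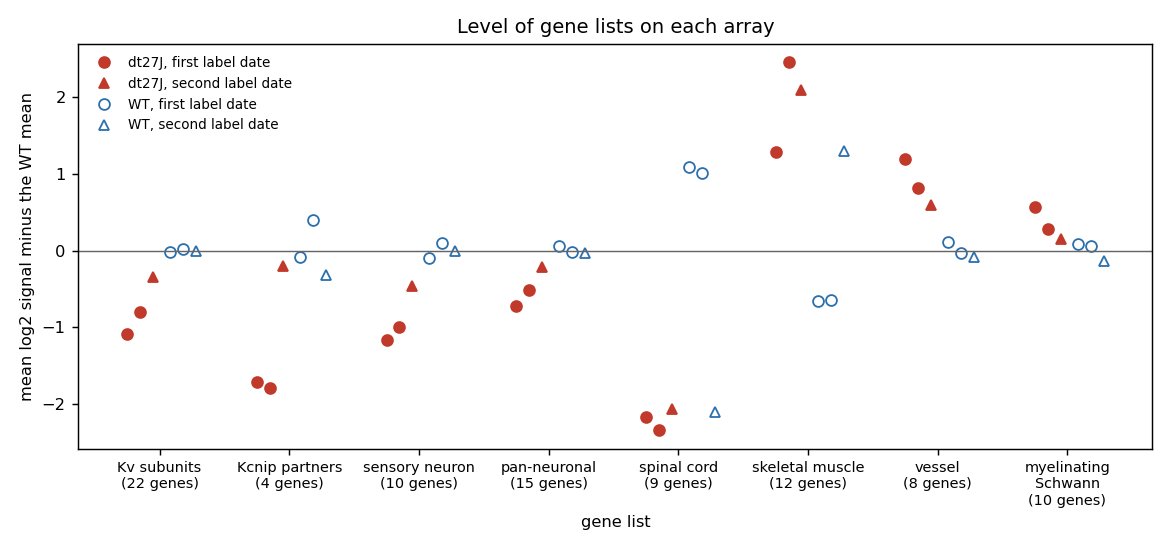
Mean log2 signal of gene lists on each array, minus the mean of the WT arrays. Points are arrays (circles first label date, triangles second), with dt27J filled and WT open. The Kv subunit mean lies between -1.08 and -0.35 on the dt27J arrays and between -0.01 and 0.02 on the WT arrays, while the spinal cord mean separates WT 1 and WT 2 from the other 4 arrays.

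Kv subunit transcripts tended to lower values in dt27J ganglia, but few passed the test. Of the 28 tested probes, 24 had a negative fold change, against 53.6% of all tested probes. The median of the 28 log2 fold changes was -0.76, beside -0.05 over all tested probes. By the brightest probe of each gene, 18 of the 22 genes had a negative fold change and 4 a positive one. Their median was -0.84, with a range from -1.69 to 0.16. On the same measure 9 of 10 sensory neuron genes were negative (median -0.90) and 14 of 15 pan-neuronal genes (median -0.45). By the brightest probe, 2 sensory neuron genes and 0 pan-neuronal genes fell at an adjusted p of 0.05 (limma). A further probe of the pan-neuronal gene Rbfox3 (-1.16) and one of the sensory neuron gene Pou4f1 (-1.28) also fell (adjusted p = 0.0472 each, limma). Probes of Kcnab1, Kcnd1 and Kcnh1 entered the test through WT alone, being well above background on 1 of 3 dt27J arrays. Over the 25 Kv probes well above background on all 6 arrays, 21 fold changes were negative and the median was -0.83. After Benjamini-Hochberg adjustment over all tested probes, 3 Kv probes of 2 genes, Kcnc1 and Kcnab1, fell and 0 rose at an adjusted p of 0.05 (limma). Over all tested probes, 1.88% fell and 1.31% rose (3.19% in either direction). At an unadjusted p under 0.05, 15 Kv probes were lower and 0 higher, where 15.7% of all tested probes were lower and 12.0% higher. All 3 dt27J arrays lay below all 3 WT arrays on 10 of the 28 probes and above them on 0, beside 16.0% and 12.8% of all tested probes. In 9 genes the adjusted p lay between 0.05 and 0.1, the smallest being 0.0506 for Kcnh2. Since these are bulk samples, fewer neurons and less RNA per neuron cannot be told apart.

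The mean level of the 22 genes was nearly the same on the WT arrays, at -0.01, 0.02 and -0.01 on WT 1 to 3 relative to their mean. Single genes differed among them: WT 3 minus the mean of WT 1 and WT 2 was 2.34 for Kcns1, -1.65 for Kcnf1 and -1.27 for Kcnd2. The dt27J arrays stood at -1.08, -0.80 and -0.35. On the same scale the mean of 15 pan-neuronal genes stood at -0.72, -0.52 and -0.21 on the dt27J arrays, against 0.06, -0.02 and -0.03 on the WT arrays, and that of 10 sensory neuron genes at -1.16, -1.0 and -0.46, against -0.09, 0.10 and -0.01. The neuronal lists and the Kv mean thus had the same order of dt27J arrays, with dt27J 3 nearest to WT. Taken singly, 13 of the 22 Kv genes had dt27J 3 as the dt27J array nearest the WT mean. The vessel list was higher in dt27J, at 1.20, 0.82 and 0.60 on the dt27J arrays, against 0.11, -0.03 and -0.08 on the WT arrays. There too dt27J 3 was nearest to WT, as in the fibroblast list (1.24, 1.33 and 0.28 on dt27J 1 to 3). In the skeletal muscle list dt27J 1 was nearest instead. The part of neuron content, or of spinal cord tissue, in the Kv differences was not tested.

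**Figure D2:**
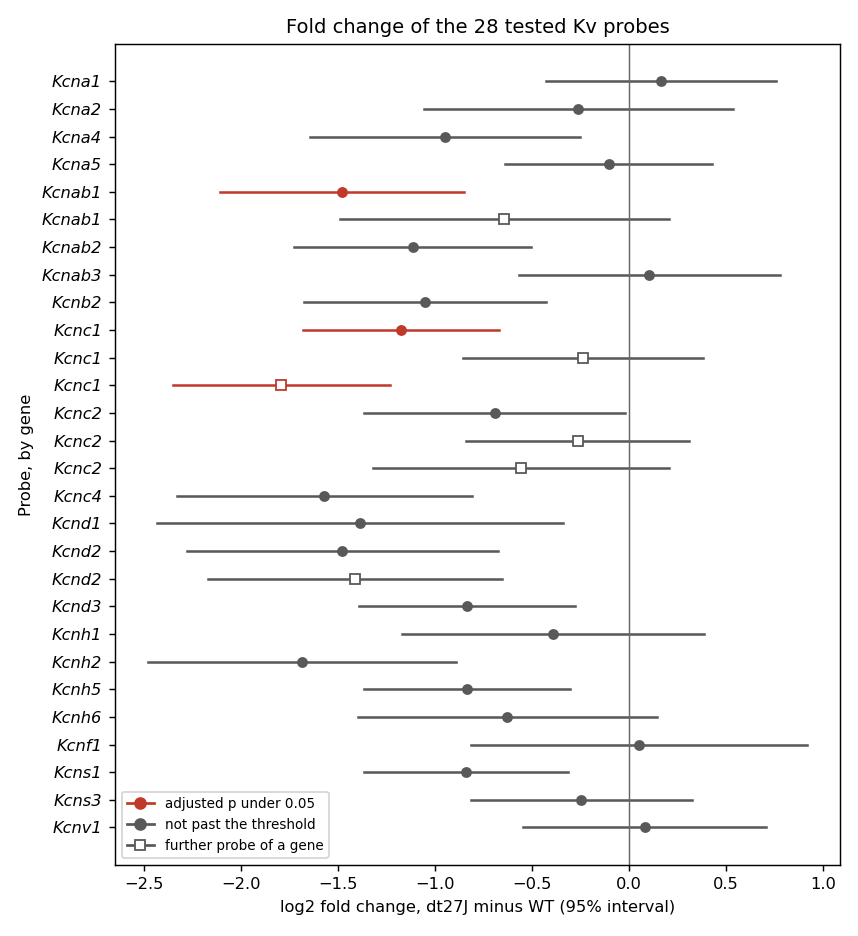
Log2 fold change, dt27J minus WT, of the 28 tested Kv probes with its 95% interval from the moderated fit. Filled circles are the brightest probe of a gene, open squares further probes, and red marks an adjusted p under 0.05. The 2 called Kcnc1 probes and 1 Kcnab1 probe lie between -1.79 and -1.18, and 9 of the 22 genes have intervals that reach across 0.

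The Kcnc genes encode channels that open only at strong depolarisation and close quickly, which allows short action potentials. All 3 had a negative fold change, and Kcnc1 passed on 2 of its 3 probes. Values are log2 signals relative to the 75th percentile of the array, and levels of different probes cannot be set against each other. On its brightest probe (A_52_P867058), Kcnc1 stood at -1.84, -1.52 and -1.51 on the dt27J arrays, against -0.31, -0.37 and -0.66 on the WT arrays. The genotypes did not overlap, and the fall was 1.18 on the log2 scale (SE 0.21, adjusted p = 0.0472, limma), to 44.2% of the WT signal. A further Kcnc1 probe (A_52_P592305) stood at -3.25, -3.35 and -2.43 in dt27J, against -1.22, -1.25 and -1.18 in WT. There the genotypes did not overlap, the SD was 0.51 in dt27J and 0.04 in WT, and the fall was 1.79 (SE 0.23, adjusted p = 0.0413), to 28.9% of WT. The last Kcnc1 probe (A_52_P422050) is assigned to the same transcript as this one but stood at -2.37, -2.71 and -2.07 in dt27J, against -2.14, -1.88 and -2.42 in WT. On it the genotypes overlapped and the fold change was -0.24 (95% interval -0.86 to 0.38), so the Kcnc1 probes did not give 1 answer.

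Kcnc4, whose channels inactivate fast, had the largest fold change of the subfamily by the brightest probe. It stood at -1.66, -1.55 and -0.30 in dt27J, against 0.05, 0.69 and 0.46 in WT. The groups did not overlap, but dt27J 3 lay nearer to WT than the other dt27J arrays, and the fold change of -1.57 (SE 0.32) missed the threshold with an adjusted p of 0.0526. Kcnc2 stood at -0.69 (SE 0.28, adjusted p = 0.171), with its further probes at -0.26 and -0.56, and on each of its 3 probes the genotypes overlapped.

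The beta subunit genes gave the other call. Beta subunits bind the inside of Kcna channels, and that of Kcnab1 can plug the open pore and so make the current inactivate. Kcnab1 stood at 0.85, 1.51 and 2.01 on the dt27J arrays, against 2.94, 2.84 and 3.03 on the WT arrays (A_52_P568895). Every dt27J array was lower than every WT array, the SD was 0.58 in dt27J and 0.10 in WT, and the fall was 1.48 (SE 0.26, adjusted p = 0.0472), a 2.79-fold decrease. A dimmer Kcnab1 probe (A_51_P320291) was well above background on 1 of 3 dt27J arrays and 3 of 3 WT arrays and stood at -0.64 (SE 0.36, adjusted p = 0.285). Kcnab2 was at 1.99, 2.33 and 3.00 in dt27J, against 3.35, 3.74 and 3.59 in WT. Its arrays did not overlap either, and its fold change of -1.12 (SE 0.26) had an adjusted p of 0.0603. Kcnab3 stood at 0.11 with a 95% interval of -0.57 to 0.78.

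The 3 calls lay close to the threshold. They were lost without the date term (adjusted p from 0.0586 to 0.0644, limma) and without a filter on dim probes (0.0933 to 0.0973). With normexp background correction Kcnab1 was lost (-1.26, adjusted p = 0.0544), and the Kcnc1 probes stood at -0.62 and -0.79. Within the second date the differences were -0.86 and -1.25 for the called Kcnc1 probes and -1.02 for Kcnab1, beside -1.34, -2.07 and -1.71 within the first date. Each of the 3 calls was lost without dt27J 1 (adjusted p from 0.177 to 0.188), without dt27J 2 (0.0728 to 0.102), without WT 1 (0.248 each) and without WT 2 (0.157 to 0.165).

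The start regions of the called genes are shown because the 2 genes, which were lower together, begin in sequence of unlike kind. Each window runs from 250 bases before to 50 bases after an annotated start in RefSeq, build GRCm38.p6, plus strand for both genes, with the GC box (GGGCGG, or CCGCCC on the other strand) in capitals. Kcnc1, on chromosome 7, has 1 annotated start at chr7:46396218-46396517, and Kcnab1, on chromosome 3, has 3, of which the first lies at chr3:64948962-64949261.
Kcnc1: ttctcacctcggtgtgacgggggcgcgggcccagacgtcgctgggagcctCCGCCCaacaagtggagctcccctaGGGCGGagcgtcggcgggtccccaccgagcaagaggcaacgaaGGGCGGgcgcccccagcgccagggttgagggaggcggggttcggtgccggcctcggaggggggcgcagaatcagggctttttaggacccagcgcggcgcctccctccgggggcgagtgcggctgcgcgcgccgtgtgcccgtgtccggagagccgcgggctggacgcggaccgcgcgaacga
Kcnab1: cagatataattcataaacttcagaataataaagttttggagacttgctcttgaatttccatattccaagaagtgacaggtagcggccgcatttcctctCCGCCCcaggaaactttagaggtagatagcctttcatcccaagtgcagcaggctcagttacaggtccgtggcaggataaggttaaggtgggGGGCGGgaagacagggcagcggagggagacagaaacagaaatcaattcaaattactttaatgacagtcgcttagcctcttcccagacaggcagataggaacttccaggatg
The Kcnc1 window holds 41 CpG dinucleotides and 3 GC boxes at a G and C content of 74.7%. The first Kcnab1 window holds 7 CpG dinucleotides and 2 GC boxes at 46.7%, and the other Kcnab1 windows hold 3 and 1 CpG dinucleotides and 0 GC boxes. A GC box on either strand was present in 18 of 32 windows of 23 Kv genes (56.2%), beside 35.7% of all 32851 windows. The median number of CpG dinucleotides was 17 in the Kv windows and 7 in all windows. The TATA box, searched as TATAAA on both strands, was in 1 of the 32 Kv windows, the third of Kcnab1, and in 13.6% of all windows. The arrays do not show which start was used.

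The Kcna genes encode the channels that cluster beside the nodes of myelinated axons and damp firing near threshold. Their median fold change was -0.18 over 4 tested genes, and 0 of them passed. Kcna1 stood at 4.90, 5.26 and 4.46 on the dt27J arrays, against 4.65, 4.63 and 4.85 on the WT arrays. The genotypes overlapped, and the fold change was 0.16 with a 95% interval of -0.43 to 0.76. This interval leaves out changes as large as those of the called Kcnc1 and Kcnab1 probes. Kcna4, an A-type subunit found in small-diameter sensory neurons of the rat, behaved otherwise, at -0.87, -0.89 and 0.37 in dt27J, against 0.54, 0.43 and 0.48 in WT. The dt27J arrays of the first date were well below the WT arrays and dt27J 3 was just below them, with a fold change of -0.95 (SE 0.29, adjusted p = 0.0987). Kcna2, the usual partner of Kcna1 in the axon, stood at -0.26 (95% interval -1.06 to 0.54) and Kcna5 at -0.10 (95% interval -0.64 to 0.43). Kcna3 was not well above background on any array.

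**Figure D3:**
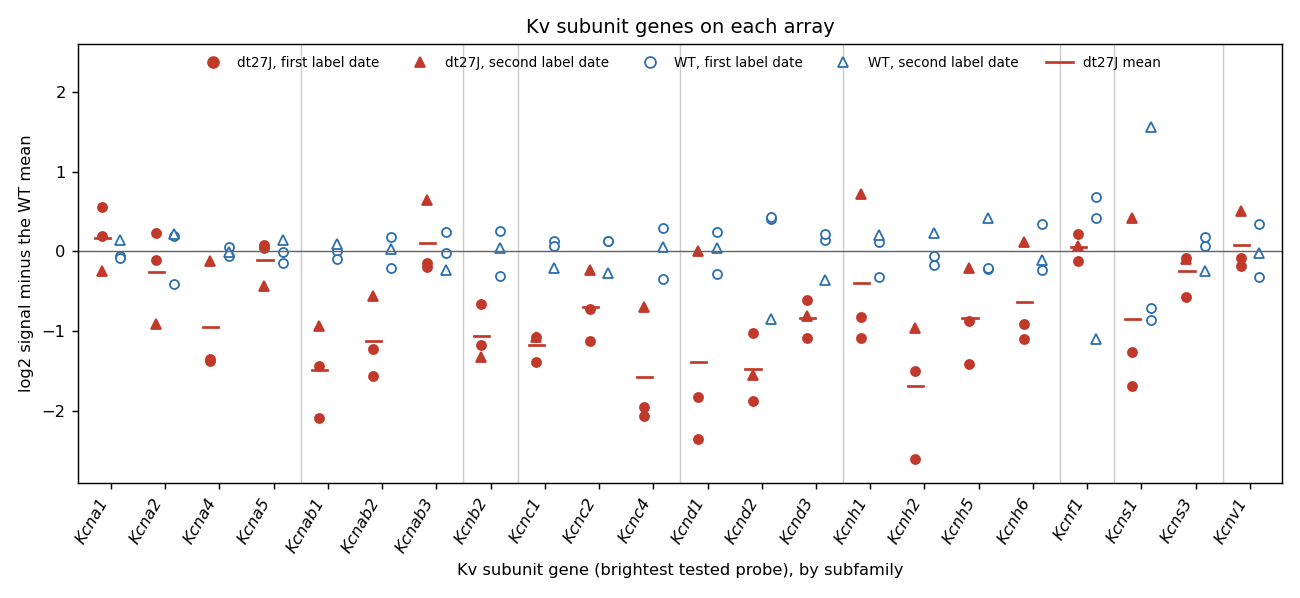
Log2 signal of the brightest tested probe of each of the 22 Kv genes on each array, minus the mean of its WT arrays, grouped by subfamily. Filled red symbols are dt27J and open blue symbols WT, circles the first label date and triangles the second, and bars the dt27J mean. The dt27J points lie below all WT points for 9 genes, among them Kcnab1, Kcnc1, Kcnc4, Kcnd2 and Kcnh2, and overlap them for Kcna1, Kcnf1 and Kcnv1.

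All 3 Kcnd genes, which encode the pore of A-type channels active below threshold, had negative fold changes, and 0 of them passed. Kcnd2 stood at -0.89, -0.04 and -0.57 in dt27J, against 1.39, 1.41 and 0.14 in WT. WT 3 was 1.27 below the mean of WT 1 and WT 2, so the groups were separated by only a small gap, and the fold change was -1.48 (SE 0.34, adjusted p = 0.0593). A dimmer Kcnd2 probe had a like fold change of -1.41 (SE 0.32, adjusted p = 0.0583) but its genotypes overlapped, with WT 3 at 1.67 below the mean of WT 1 and WT 2. The lower Kcnd2 signal of WT 3 went with its lower spinal cord signal, and the part of that tissue in the Kcnd2 difference was not tested. Kcnd3 stood at -0.84 (SE 0.23, adjusted p = 0.0821) with no overlap between genotypes. Kcnd1 was well above background on 1 of 3 dt27J arrays and 3 of 3 WT arrays, at -6.19, -5.66 and -3.84 in dt27J, against -4.12, -3.60 and -3.80 in WT. Its fold change of -1.39 (SE 0.44, adjusted p = 0.105) rested on the first date, since the difference within the second was -0.04.

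Kcnb2, a delayed rectifier and the only Kcnb gene examined, had a negative difference in both dates. It stood at -4.17, -3.66 and -4.32 on the dt27J arrays, against -2.74, -3.30 and -2.95 on the WT arrays. The genotypes did not overlap, the fold change was -1.05 (SE 0.26, adjusted p = 0.0675), and the difference was -1.37 within the second date, the lowest of the 22 genes there, beside -0.90 within the first.

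Of the silent subunits, 4 of the 7 genes with a probe were tested, and 0 passed. Kcns1, a silent subunit of myelinated sensory neurons in the rat, stood at -2.98, -3.41 and -1.30 in dt27J, against -2.58, -2.43 and -0.17 in WT. Both genotypes were higher on the second date, and Kcns1 was the only Kv gene with a label date effect past the threshold (2.11, adjusted p = 0.0491), where 0.107% of all tested probes passed. With the date as a term its genotype effect was -0.84 (SE 0.22, adjusted p = 0.0740). Kcns3 was at -0.62, -0.13 and -0.14 in dt27J, against 0.02, 0.13 and -0.29 in WT, which overlapped, with a fold change of -0.25 (95% interval -0.82 to 0.32). The median of the 2 Kcns genes was -0.54. Kcnf1 stood at 0.05 (95% interval -0.82 to 0.92), with WT 3 at 1.65 below the mean of WT 1 and WT 2, and Kcnv1 at 0.08 (95% interval -0.54 to 0.71). Kcng4 was well above background on no array. Kcng3 reached this on 1 WT array, and each Kcns2 probe on 1 array of each genotype, so neither was tested.

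Among the Kcnh genes, 4 of 6 were tested, all with negative fold changes and a median of -0.73, and 0 passed. Kcnh2, which encodes the ERG channel, which closes slowly and is best known from the heart, had the lowest fold change of all 22 genes. It stood at -1.40, -0.29 and 0.24 on the dt27J arrays, against 1.03, 1.15 and 1.44 on the WT arrays. The groups did not overlap, but the dt27J arrays were spread with an SD of 0.84 against 0.21 in WT, and the fold change of -1.69 (SE 0.33) had an adjusted p of 0.0506. Within the second date the difference was -1.19. Kcnh5 stood at -0.83 (SE 0.22, adjusted p = 0.0761), Kcnh6 at -0.63 (SE 0.32, adjusted p = 0.258) and Kcnh1 at -0.39 (SE 0.33, adjusted p = 0.464). Kcnh1 was well above background on 1 of 3 dt27J arrays, and Kcnh3 and Kcnh7 were so on no array.

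The Kcnq subfamily could not be compared. Kcnq3 was well above background on 1 array of each genotype and Kcnq5 on 1 dt27J array, so neither was tested. The subfamilies had no stable order. The Kcnd median of -1.39 is the value of Kcnd1, which entered through WT alone, and it stood at -0.19 with normexp and at -0.46 with the authors' deposited table. The Kcnab median was -1.12, and -1.05 and -1.08 in the same settings, and that of Kcnc was -1.18, and -0.62 and -1.01. Ranges of single genes overlapped, as for Kcna (-0.95 to 0.16), Kcnab (-1.48 to 0.11) and Kcnh (-1.69 to -0.39), and medians of so few genes carry no test.

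The difference between genotypes was larger in the first date than in the second for most Kv genes. Over the 22 genes the median difference was -0.98 within the first date and -0.52 within the second, beside 0.03 and -0.15 over the brightest probes of all named genes. Of the 22 genes, 12 were lower in dt27J in both dates, 0 were higher in both and 10 differed in sign. By probe, 14 of 28 were lower in both dates, where 32.3% of all tested probes were. The interaction of genotype and date passed on 0 of 28 Kv probes (limma, smallest adjusted p = 0.0653, the dimmer Kcnab1 probe), where 0.831% of all tested probes passed. At an unadjusted p under 0.05 it stood at 12 of the 28 probes, where 27.5% of all tested probes reached this. Kcna1, Kcna2 and Kcna5 were the genes with a positive difference in the first date (0.44, 0.17 and 0.13) and a negative one in the second (-0.39, -1.13 and -0.58). The other 7 genes that differed in sign ran the opposite way, from Kcnc2 (0.04 within the second date) to Kcnf1 (1.16). With 1 array per genotype, the second date has no replicate of its own.

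**Figure D4:**
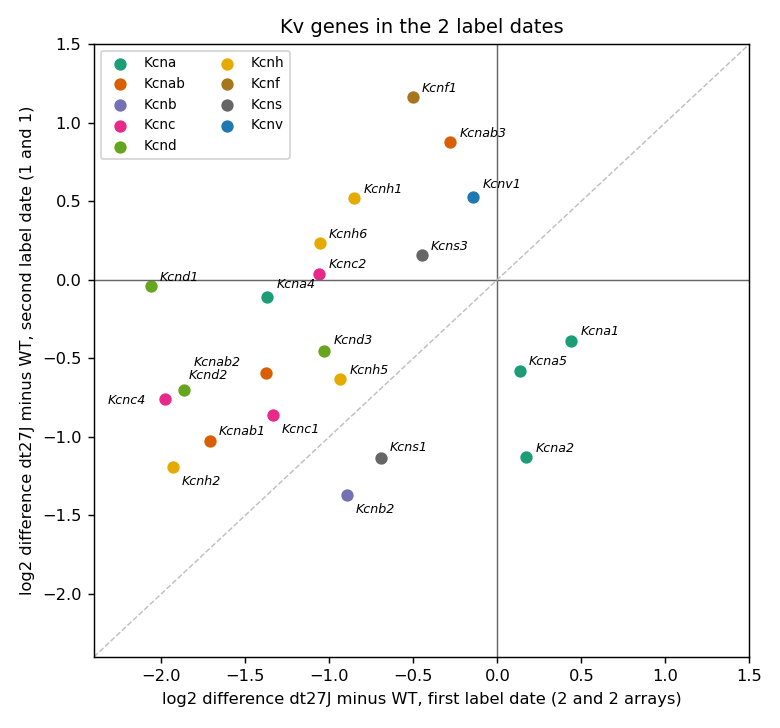
Difference of log2 signal, dt27J minus WT, of the 22 Kv genes within the first label date (x axis, 2 arrays per genotype) and within the second (y axis, 1 array per genotype). Each point is a gene in the colour of its subfamily, and the dashed line marks equal differences. The 12 genes at lower left are lower in both dates, among them Kcnh2, Kcnab1, Kcnc1 and Kcnb2.

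Relative to the pan-neuronal genes, 3 Kv probes fell, of Kcnc1, Kcnab1 and Kcnh2, and 0 rose, where 1.04% of all tested probes fell and 10.4% rose. When each array was scaled to the mean of its 15 pan-neuronal genes, a scaling chosen after the data were seen, the median log2 fold change of all tested probes moved to 0.43 and that of the 28 Kv probes to -0.28. Kcnc1 (A_52_P592305) then stood at -1.31 (adjusted p = 0.0276), Kcnab1 at -1.0 (adjusted p = 0.0444) and Kcnh2 at -1.20 (adjusted p = 0.0436). The brightest Kcnc1 probe stood at -0.69 (adjusted p = 0.0822), and 18 of the 28 probes stayed negative. Kcna1 stood at 0.65 and Kcnab3 at 0.59 there, neither past the threshold. No scaling to the sensory neuron genes was run. The difference of list means, dt27J minus WT, was -0.87 for the 10 sensory neuron genes. It was -0.48 for the pan-neuronal genes and -0.74 for the 22 Kv genes.

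Genes of the proteins that bind or place Kv channels were also examined, 22 of 25 listed genes being tested. The 4 Kcnip genes, calcium-binding partners of Kcnd channels, all had negative fold changes (median -1.18), and 0 passed. Their median was -1.92 within the first date and 0.07 within the second, and their mean stood at -1.71, -1.79 and -0.20 on dt27J 1 to 3, against -0.08, 0.40 and -0.32 on WT 1 to 3. Of 5 transmembrane partners, 4 were negative, 0 fell and 1 rose. Kcne4, a small accessory subunit, rose by 1.45 (SE 0.27, adjusted p = 0.0472), at -2.22, -2.66 and -4.26 in dt27J, against -4.35, -3.99 and -5.17 in WT. Its genotypes overlapped, since dt27J 3 lay below WT 2. The difference was 1.73 within the first date and 0.91 within the second, and the label date effect was -1.41 (adjusted p = 0.184, limma). Dpp6, a Kcnd partner, stood at -0.87 (adjusted p = 0.0702). Of 13 genes that place Kv channels in the axon and at contacts, 8 were negative and 5 positive by the brightest probe. Their median was -0.27, and 0 passed. The brightest probes of Adam22 and Dlg4, both negative, entered the test through WT alone. They were well above background on 1 and 2 of 3 dt27J arrays. Lgi3 and Lgi4, secreted proteins of axons and glia, stood at -1.11 (adjusted p = 0.0664) and 1.06 (adjusted p = 0.0713). A dimmer Lgi4 probe stood at 0.31 (adjusted p = 0.462), and its genotypes overlapped. A dimmer probe of Dlg4, a scaffold protein, had a fold change of -1.56 (adjusted p = 0.0472). It too entered the test through WT alone, with 1 of 3 dt27J arrays well above background. The brightest Dlg4 probe had an adjusted p of 0.402.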

How the data were processed

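Per the labels' protocols, total RNA of flash-frozen ganglia (300 ng) was labelled with Cy3. Per the file headers, the deposited signals are intensities that the authors read with Agilent Feature Extraction 10.5.1.1, background-subtracted within each array and not normalized between arrays. A table deposited by the authors gives log2 values centred on each probe's median; its normalization is not stated. Set against the centred scanner values, they rose with slopes of 0.71 to 0.76, so a higher value is a higher signal, and the column medians lay between -0.0041 and 0.0053.

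Processed signals were divided by the 75th percentile of their array (a signal of 369.5 to 580) and taken to log2. Control and outlier spots were left out, and the spots of a probe were averaged. No probe was saturated. Scanner files name accessions, which were matched without versions to a RefSeq table of GRCm38.p6 (24844 of 41174 probes named). All probes were fitted with limma 3.58.1 in R 4.3.3, with genotype and label date as terms, 3 residual degrees of freedom and 3.74 from the prior, and Benjamini-Hochberg adjustment over the 26248 tested probes at 0.05. Errors are standard errors of that fit. The limma step was tested on simulated data. The number of arrays limits the precision.

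The members, lists and tests were chosen with earlier results of these data known. All Kv members may be named, the brightest tested probe stands for a gene, and values on every array are given for genes past the threshold and, in each subfamily, for the gene with the smallest p and the brightest one. Of the partners, those past the threshold and the ones with the smallest p are named. Adam22 is named for its detection. Giving Kcnd1 and Kcne4 on every array was chosen after their values were seen. Further Kv genes are not reported here. Markers of macrophages, fibroblasts, erythroid cells, myelinating Schwann cells and satellite glia had median log2 fold changes of 0.27, 0.92, 0.31, 0.03 and -0.01. In the last 2 lists 2 of 10 genes (Egr2, Gldn) and 2 of 9 (Cdh19, Ednrb) rose. Of the macrophage genes 1 of 5 (Aif1) rose, and 0 did in the fibroblast and erythroid lists. The vessel list had 1 of 8 genes that rose and the skeletal muscle list 4 of 12. By the brightest probe of all named genes, 184 of 13675 rose. Cdh19 entered the test through dt27J alone, with 1 of 3 WT arrays well above background. The alternatives were no date term, a replicate block, quantile normalization, normexp on median signals with and without high local backgrounds replaced, the authors' table, other filters on dim probes, array weights and leaving out arrays.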

Additional observations from a re-analysis of the deposited data

How the results depend on the processing

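The number of Kv probes that fell was 3 as reported, 0 without the date term, 0 under the replicate block, 0 without a filter on dim probes, 5 with the authors' table, 5 when only probes well above background on all 6 arrays were tested, 19 with array weights, whose estimation stopped before convergence, and 17 without the second label date; leaving out 1 array gave 0 to 17. Of the counts of 0, 14 Kv probes had an unadjusted p under 0.05 without the date term, 14 under the replicate block and 19 without the filter (limma). Over all probes, 494 fell and 344 rose. These counts were 6 and 8 without the date term, 0 and 2 under the replicate block, 0 and 0 without the filter, 325 lower after normexp, 614 higher with the authors' table, 6423 and 5776 with array weights, 3474 and 3331 without the second date, and 273 and 2739 relative to the pan-neuronal mean; leaving out 1 array gave 0 to 3474 lower and 0 to 3331 higher. Without WT 3 or without dt27J 3 the date term absorbs its partner, so both equal the fit without the second date. Dst stayed at -2.68 under the replicate block and without the filter and ranged from -3.0 to -2.51 over the arrays left out; it missed the threshold in both and without dt27J 1, WT 1 or WT 2.

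The second date alone and the pan-neuronal scaling were chosen after seeing the data. Whether the replicate numbers pair the samples was not settled. Deviations from the group means correlated at 0.22, -0.15 and 0.06 for numbers 1, 2 and 3. These values cannot decide it, since each mean rests on 3 arrays and number 3 is also the second label date.

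Subfamily medians moved by more than the spread between arrays in these cases. With the authors' table Kcnb stood at -0.60 and Kcnd at -0.46. After normexp Kcnb, Kcnc, Kcnd and Kcnh stood at -0.30, -0.62, -0.19 and -0.19, and with high local backgrounds replaced Kcnb, Kcnc and Kcnd at -0.44, -0.87 and -0.28. Relative to the pan-neuronal mean Kcna, Kcnab, Kcnb, Kcnc, Kcnd, the silent genes and Kcnh stood at 0.30, -0.63, -0.57, -0.69, -0.91, 0.38 and -0.25. In the second date alone Kcna, Kcnab, Kcnc, Kcnd, the silent genes and Kcnh stood at -0.48, -0.59, -0.76, -0.45, 0.34 and -0.20, and without the second date Kcna at 0.15 and Kcnd at -1.87. Over the arrays left out, Kcna ranged from -0.38 to 0.15 and Kcnd from -1.87 to -1.05.

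The causes of these sign changes were not tested. After normexp Kcnv1 turned to -0.012 and the dimmer Kcnab1 probe, at -0.64 as reported, to 0.0066, and with backgrounds replaced to -0.016 and 0.010. With array weights Kcnab3, Kcnv1, Kcna5 and Kcnf1 turned to -0.097, -0.41, 0.038 and -0.56. Without the second date Kcnab3, Kcnv1, Kcna5, Kcna2 and Kcnf1 turned to -0.28, -0.14, 0.13, 0.17 and -0.50. Over the arrays left out, Kcnab3 ranged from -0.28 to 0.29, Kcnv1 from -0.14 to 0.33, Kcna1 from -0.018 to 0.44, Kcna5 from -0.21 to 0.13, Kcna2 from -0.56 to 0.17 and Kcnf1 from -0.50 to 0.31. Relative to the pan-neuronal mean Kcnh1, a Kcnc2 probe, a Kcnc1 probe, Kcna5, Kcna2 and Kcns3 turned to 0.088, 0.22, 0.24, 0.38, 0.22 and 0.24.

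Kv probes with an interaction past the threshold numbered 1 with the authors' table, after either normexp or without the filter, and 0 to 5 over the arrays left out. Those with a date effect numbered 4 without the filter, 0 to 7 over the arrays left out and 0 after quantile normalization, either normexp, the authors' table, array weights or pan-neuronal scaling.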
